A study of Mus musculus with 6 samples.

Results

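The potassium channel genes of cultured mouse aortic cells, compared here between female and male cultures, are the protein-coding genes of the count table whose symbol begins with Kcn. They number 94 of 54532 genes in the table, of which 22046 are protein-coding, and comprise 40 voltage-gated, 15 inward rectifier, 14 two-pore and 8 calcium-activated channel genes and 17 genes of beta and other auxiliary subunits. Another 5 rows with a Kcn symbol are antisense RNAs and were not counted as members. Poly-A RNA of 3 female and 3 male libraries was sequenced. Both groups are labelled wild type, untreated primary endothelial cells (MAEC) from the aorta, grown in F-12 medium that held serum, growth factors for endothelium and heparin. The labels give no strain, age or passage and do not tell whether the 3 libraries of each sex are separate animals, so the spread behind each p-value is that between libraries and may be technical.

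A potassium channel lets potassium leave the cell and so holds the membrane voltage negative. In endothelium of intact arteries, hyperpolarisation through the calcium-activated channels encoded by Kcnn3 and Kcnn4 spreads to the smooth muscle and relaxes it, and the inward rectifier encoded by Kcnj2 takes part in the response to flow and to potassium outside the cell. Voltage-gated alpha subunits open on depolarisation, inward rectifiers pass current best near the resting voltage, two-pore channels carry background current, and beta subunits change gating, speed or trafficking of the alpha subunits they bind.

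The libraries held 17410996 to 22993574 counts, and a count of 0 in a single library allowed 0.128 to 0.171 CPM (counts scaled to the TMM-adjusted library total), taking 3 counts as the floor, for counting error only. The defining endothelial genes were nearly absent. Of 12 endothelial markers, 11 stayed under 1 CPM in every library, Cdh5, Tie1, Cldn5 and Robo4 had 0 counts in all 6, and the list summed to 2.35 to 4.33 CPM in female libraries, against 4.21 to 6.6 CPM in male libraries. The 9 fibroblast markers, all expressed, summed to 11900 to 12700 CPM in female libraries, against 6520 to 7120 CPM in male libraries, with 6 higher and 1 lower in female. The 7 smooth muscle markers summed to 118 to 120 CPM in female libraries, against 142 to 176 CPM in male libraries. Most of that sum was Smtn, while Acta2 averaged 3.23 CPM in female libraries and 20.3 CPM in male libraries (-2.64 ± 0.26, edgeR adjusted p = 7.6e-05). Acta2 was the only 1 called of the 4 tested. Des, not tested, went the other way, with 24, 4 and 28 counts in female and 0, 4 and 0 in male libraries. The 5 pericyte markers summed to 1700 to 1740 CPM in female libraries, against 1640 to 2040 CPM in male libraries, with Pdgfrb lower (-1.24 ± 0.13, edgeR adjusted p = 9.19e-05) and Rgs5 higher in female (0.44 ± 0.12, edgeR adjusted p = 0.0314). The 5 neural and glial markers summed to 13.5 to 16.4 CPM in female libraries, against 24.1 to 38.7 CPM in male libraries, with Tubb3 lower in female (-1.14 ± 0.18, edgeR adjusted p = 0.00179). The 5 macrophage markers summed to 12.6 to 18.1 CPM in female libraries, against 6.29 to 10.3 CPM in male libraries, with Ptprc at 0 in all. Most of that sum was Lyz2, the only 1 called of 3 tested (1.29 ± 0.28, edgeR adjusted p = 0.00948). Cd68 (0.51 ± 0.30) and Csf1r (-1.35 ± 0.60) were not called and lay on opposite sides of 0. The part of cell makeup in the differences below was not tested, and in such bulk libraries fewer cells of a type cannot be told apart from less RNA per cell. Male library 3 stood apart, with a correlation of log2 CPM of 0.966 with male library 1, against 0.983 or more among female libraries.

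Of the 94 genes, 32 had 0 counts in all 6 libraries, 32 had counts but were too low to test, and 30 passed the filter on low counts. Among those 30, 7 were higher and 7 lower in female (46.7% called), beside 18.3% of all 14932 tested genes and 20.0% of the tested protein-coding genes. The background was 9.68% for higher and 8.62% for lower calls. Calls are at an adjusted p under 0.05 by edgeR's quasi-likelihood test with Benjamini-Hochberg adjustment over all tested genes, and each log2 fold change sets female over male. Of the 30, 5 reached the level of the filter in all female but not all male libraries (Kcnrg, Kcnma1, Kcna3, Kcna4 and Kcnh7) and 3 in all male but not all female libraries (Kcnn4 and Kcnk5 among them), so that a difference was part of how these entered the test. Among the 21 that reached it in all 6 libraries, 9 were called (42.9%). The share over all tested genes was not restricted in this way. The median log2 fold change of the 30 was 0.05 and that of their absolute values 1.25, beside -0.01 and 0.26 over all tested genes. Without male library 3, 9 were higher and 9 lower of 31 tested, beside 32.7% of all genes called. Of the 30, 7 were higher and 6 lower by at least 2-fold, beside 5.4% and 4.9% of all tested genes. DESeq2 called 17 of the 30 (21.9% of all genes) and limma-voom 20 (44.0%). Without a filter 20 of 62 were called (13.3%), and with a mean of at least 50 counts 9 of 15 (19.5%). Without female library 1, 9 of 30 were called (12.8%).

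**Figure D1:**
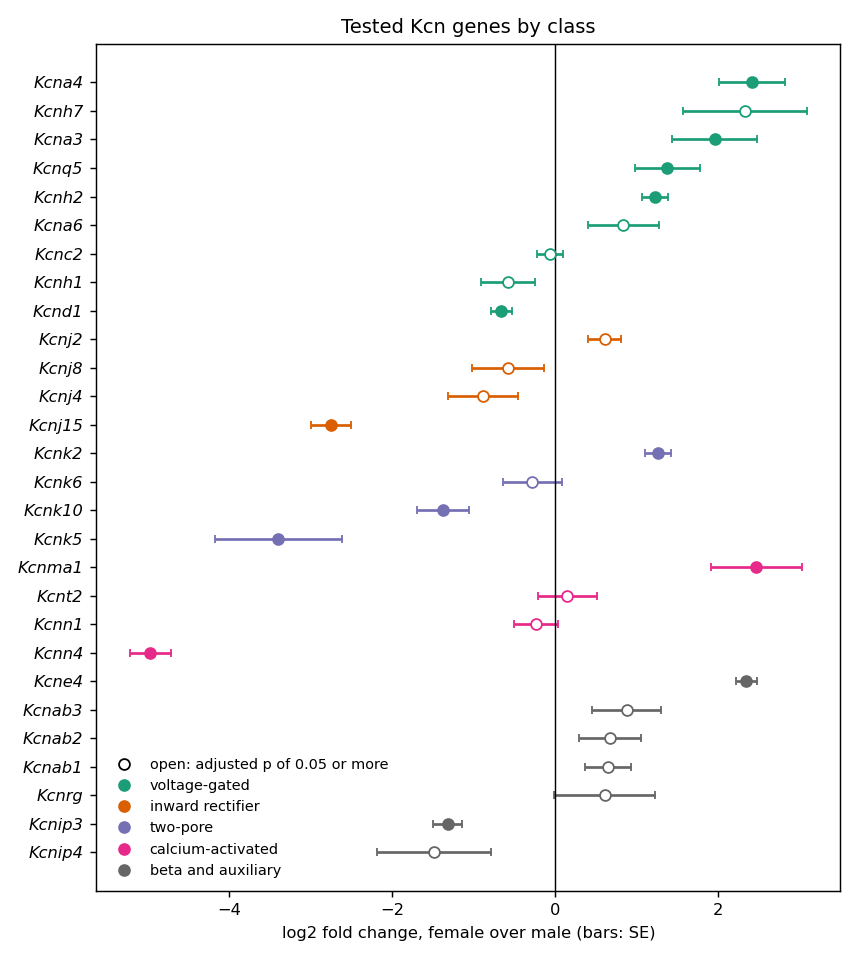
Log2 fold change, female over male, of 28 of the 30 tested Kcn genes, ordered by class, with bars for the SE of edgeR. Filled points are called at an adjusted p under 0.05; calls lie on both sides of 0, down to -4.97 for Kcnn4 and up to 2.47 for Kcnma1.

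Levels between genes were compared as TPM, computed from the counts and the gene lengths of the table. The summed level of the 94 genes was 206, 174 and 179 TPM in the female libraries and 144, 133 and 95 TPM in the male libraries, so that on this scale the female libraries all lay above the male ones. Without gene length the sexes overlapped, at 243, 215 and 222 CPM in the female libraries and 220, 206 and 169 CPM in the male libraries. Auxiliary subunits held 40.4 ± 1.45% of the summed TPM in female and 21 ± 1.99% in male libraries (SD, n = 3 each). Inward rectifiers held 6.31 ± 0.360% in female and 19.7 ± 3.52% in male libraries. Calcium-activated channels held 3.01 ± 0.358% in female and 10.2 ± 1.46% in male libraries, and neither of these classes overlapped between the sexes. Voltage-gated channels held close to the same share in both, 38.3 ± 2.49% in female and 39.4 ± 1.91% in male libraries. Two-pore channels held 12 ± 1.21% in female and 9.65 ± 2.31% in male libraries, with overlap. A share falls when another gene rises, so the classes are not independent, and Kcne4 alone held 34.4 ± 1.34% of the female sum and 9.59 ± 0.978% of the male sum.

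**Figure D2:**
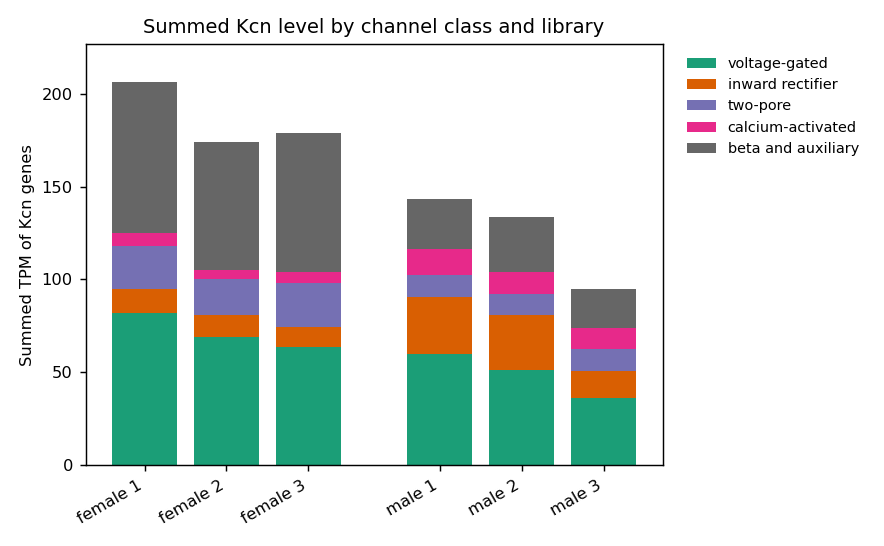
Summed TPM of the 94 Kcn genes in each library, stacked by channel class, female libraries on the left. The auxiliary subunits (grey) make up 69.1 to 81.3 TPM in female and 21.2 to 29.5 TPM in male libraries.

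The order of the genes also differed between the sexes. In female libraries the highest means were those of Kcne4 (64.0 ± 5.30 TPM), Kcnh2 (32.4 ± 3.97 TPM), Kcnk2 (17.7 ± 0.925 TPM), Kcna3 (12.3 ± 4.6 TPM) and Kcnd1 (9.40 to 10.6 TPM over the 3 libraries). Over the 3 libraries Kcna3 overlapped Kcnd1, the next in that list, while Kcnk2 lay above both. In male libraries the highest were Kcnj15 (17.6 ± 6.86 TPM), Kcnd1 (14.9 ± 1.70 TPM), Kcnh2 (13.1 ± 3.69 TPM), Kcne4 (11.8 ± 1.75 TPM) and Kcnc2 (8.65 ± 2.08 TPM), each overlapping the next over the 3 libraries. Kcnj15, at rank 1 in male libraries, was at rank 9 in female libraries, and Kcnn4, at rank 7 in male libraries, was at rank 31 in female libraries.

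**Figure D3:**
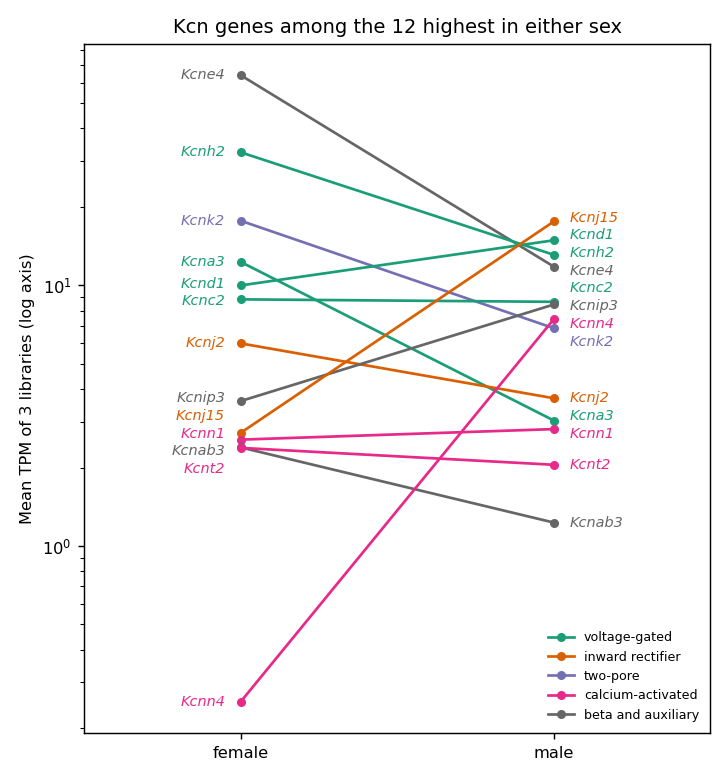
Mean TPM over 3 libraries (log axis) of 13 Kcn genes among the 12 highest in either sex, female on the left, joined by lines coloured by class. The lines of Kcnj15 and Kcnn4 climb most steeply toward the male side, and that of Kcne4 toward the female side.

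**Figure D4:**
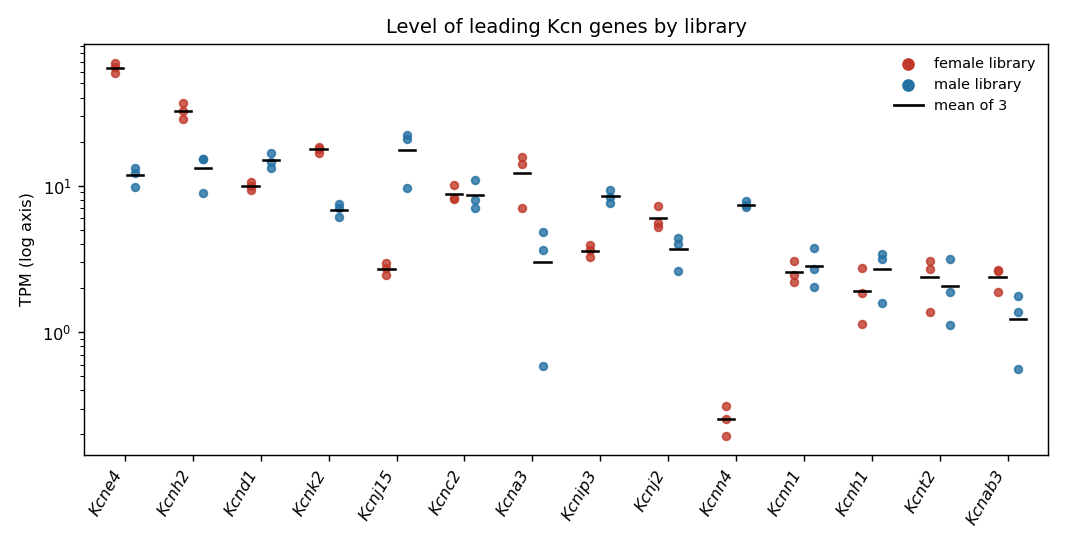
TPM (log axis) of 14 of the 15 Kcn genes with the highest mean over all 6 libraries, with a point per library and a line at the mean of 3. Kcn genes such as Kcnc2 and Kcnn1 overlap between the sexes, whereas Kcne4, Kcnk2 and Kcnn4 do not.

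The windows around the annotated start are printed for the 3 genes with the largest called rise and the 3 with the largest called fall among those with a single window, since these carry the widest differences between the sexes. Each runs from 250 bases before to 50 bases after the start (RefSeq, GRCm38.p6, 5′ to 3′ on the strand of the gene), with capitals for a GC box or a TATA box on either strand.
Kcnma1 (chr14:24004156-24004455, minus strand): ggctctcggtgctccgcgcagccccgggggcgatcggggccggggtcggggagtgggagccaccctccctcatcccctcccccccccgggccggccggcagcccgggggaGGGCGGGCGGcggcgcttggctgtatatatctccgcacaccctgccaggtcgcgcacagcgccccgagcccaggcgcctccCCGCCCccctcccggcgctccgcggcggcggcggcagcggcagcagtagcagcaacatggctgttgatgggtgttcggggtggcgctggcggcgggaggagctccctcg
Kcna4 (chr2:107290339-107290638, plus strand): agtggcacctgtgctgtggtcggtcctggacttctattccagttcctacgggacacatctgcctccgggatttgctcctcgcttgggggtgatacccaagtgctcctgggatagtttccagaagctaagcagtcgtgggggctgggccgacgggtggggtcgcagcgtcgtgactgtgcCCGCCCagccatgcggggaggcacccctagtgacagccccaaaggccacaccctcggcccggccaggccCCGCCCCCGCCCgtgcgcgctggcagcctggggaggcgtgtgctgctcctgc
Kcne4 (chr1:78816661-78816960, plus strand): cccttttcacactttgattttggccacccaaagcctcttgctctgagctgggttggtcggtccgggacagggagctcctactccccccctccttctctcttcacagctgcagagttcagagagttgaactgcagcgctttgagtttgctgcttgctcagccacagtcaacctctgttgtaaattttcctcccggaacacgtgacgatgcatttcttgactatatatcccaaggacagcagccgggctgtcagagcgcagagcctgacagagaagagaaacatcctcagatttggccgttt
Kcnn4 (chr7:24370013-24370312, plus strand): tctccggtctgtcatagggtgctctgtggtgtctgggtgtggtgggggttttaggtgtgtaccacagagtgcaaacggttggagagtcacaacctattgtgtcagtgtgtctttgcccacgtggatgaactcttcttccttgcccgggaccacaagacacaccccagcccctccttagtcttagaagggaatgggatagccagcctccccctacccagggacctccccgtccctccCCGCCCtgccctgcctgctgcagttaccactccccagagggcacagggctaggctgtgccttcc
Kcnk5 (chr14:20181733-20182032, minus strand): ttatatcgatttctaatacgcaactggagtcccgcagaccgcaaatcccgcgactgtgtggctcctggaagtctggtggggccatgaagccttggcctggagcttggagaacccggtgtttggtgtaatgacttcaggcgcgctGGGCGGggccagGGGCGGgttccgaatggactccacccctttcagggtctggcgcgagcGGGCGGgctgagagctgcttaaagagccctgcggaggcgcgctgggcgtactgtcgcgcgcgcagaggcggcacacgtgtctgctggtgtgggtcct
Kcnj15 (chr16:95257308-95257607, plus strand): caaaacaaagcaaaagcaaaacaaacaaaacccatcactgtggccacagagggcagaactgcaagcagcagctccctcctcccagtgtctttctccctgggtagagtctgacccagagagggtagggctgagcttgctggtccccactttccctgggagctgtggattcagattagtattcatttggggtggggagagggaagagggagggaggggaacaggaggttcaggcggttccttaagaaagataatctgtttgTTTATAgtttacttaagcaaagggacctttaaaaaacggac
The GC box was searched as GGGCGG, the TATA box as TATAAA and an AP-1 site as TGANTCA, on both strands. No window of the 6 held more than 1 of these motifs by kind. Kcnma1, Kcna4 and Kcnk5 had 3 GC boxes each, of which 2 in Kcnma1 overlap each other, Kcnn4 had 1, and Kcne4 and Kcnj15 had 0. Kcnj15 alone held the TATA box letters, and none of the 6 had an AP-1 site. Those letters of Kcnj15 lie on the other strand, within the 50 bases after the start. Of 32851 windows of this length, 35.7% held the GC box, 13.6% the TATA box and 7.81% the AP-1 letters. CpG dinucleotides numbered 36, 20 and 9 in the windows of Kcnma1, Kcna4 and Kcne4, which rose, and 6, 26 and 2 in those of Kcnn4, Kcnk5 and Kcnj15, which fell, beside a median of 7 over all windows, so the groups overlap. The RefSeq start of Kcnma1 lies 10286 bases from the start given in the count table, and those of the other 5 lie 0 to 153 bases from it.

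Voltage-gated channels. Of 40 genes, 11 were tested, 4 rose, 2 fell and 5 did not pass, while 15 had 0 counts in every library. The most abundant in female libraries, and second to Kcnd1 within the class in male libraries, was Kcnh2, which encodes the ERG channel of cardiac repolarisation (chromosome 5, 24319589 to 24351604). It stood at 50.8, 41.8 and 47.0 CPM in female libraries and 21.8, 22.5 and 15.3 CPM in male libraries. Each female library was above each male one, a difference of 1.23 ± 0.16 in log2 (edgeR adjusted p = 0.000591). The shaker-family genes Kcna3 and Kcna4 rose as well. Kcna3, which encodes a delayed rectifier best known from lymphocytes, had 8.59, 8.10 and 4.06 CPM in female libraries and 2.71, 2.12 and 0.398 CPM in male libraries. Male library 3 was lowest and female library 3 lowest of its sex, and the sexes did not overlap (1.96 ± 0.52, edgeR adjusted p = 0.0272, and 0.0793 to 0.100 without female library 1, female library 2 or male library 2).

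Kcna4, of a fast-inactivating A-type channel, had 2.24, 2.25 and 2.73 CPM in female libraries and 0.581, 0.353 and 0.398 CPM in male libraries. Its spread within each sex was small beside the difference of 2.42 ± 0.40 (edgeR adjusted p = 0.00203). Kcnq5, of the family that carries the slow M current of neurons, had 2.51, 1.97 and 2.39 CPM in female libraries, against 1.26, 0.839 and 0.512 CPM in male libraries. Its rise of 1.38 ± 0.40 was near the threshold (edgeR adjusted p = 0.0408) and was lost without any 1 female library or without male library 2 (0.0873 to 0.140).

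Of the 2 that fell, Kcnd1, an A-type channel gene on the X chromosome (7822289 to 7838280), had 16.1, 16.0 and 15 CPM in female libraries and 25.9, 23.5 and 25.1 CPM in male libraries. Libraries of a sex lay close together, and the difference was -0.66 ± 0.13 in log2 (edgeR adjusted p = 0.00464).

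Of the voltage-gated genes that did not pass, Kcnc2, of a fast delayed rectifier, was among the most abundant and had 20.8, 17.9 and 17.4 CPM in female libraries, against 23.1, 17.3 and 17.9 CPM in male libraries. The sexes overlapped, and the 95% interval of the log2 fold change ran from -0.41 to 0.30. Kcnh1, of the ether-a-go-go channel, stood at -0.58 ± 0.33 (edgeR adjusted p = 0.284, and 0.0295 without male library 3). Kcnh7, a relative of Kcnh2, was at 2.33 ± 0.76 (edgeR adjusted p = 0.0636, and 0.0392 without male library 3). Kcnh7 shares 696 exon bases, 4.57% of its own, with Gca of the other strand, and how the counting used strand is not known. Kcna6 stood at 0.84 ± 0.44 (edgeR adjusted p = 0.244).

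The silent subunits encoded by Kcnf1 and Kcnv2 do not form channels by themselves and assemble with other voltage-gated subunits. Kcnf1 had 0 counts in all female libraries and 8, 21 and 7 counts in male libraries 1, 2 and 3, at least 12.4-fold lower in female, with 3 counts as the floor of the summed libraries, with no test because of its low counts. Kcnv2, named after its values were seen, had 0 counts in all female libraries and 9, 8 and 10 in male libraries, at least 9.33-fold lower in female. Kcnq1, the heart and epithelial channel gene, had 0 counts in all 6 libraries, although the antisense RNA from within it, Kcnq1ot1, had 212, 137 and 222 counts in female libraries and 332, 262 and 138 in male libraries.

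Auxiliary subunits. Of 17 genes, 7 were tested, with 1 higher, 1 lower and 5 not passing. Kcne4, a single-span subunit that inhibits several voltage-gated channels, Kcna3 and Kcnq1 products among them, lies on chromosome 1 (78816758 to 78820028). It stood at 52.7, 47.0 and 51.5 CPM in female libraries, against 9.53, 10.7 and 9.33 CPM in male libraries. The sexes lay far apart, with little spread within either, and the difference was 2.35 ± 0.13 in log2 (edgeR adjusted p = 1.91e-06). No other member of the Kcne family reached the test, and Kcne1, Kcne1l and Kcne3 had 0 counts in every library.

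Kcnip3 encodes a calcium-binding protein that assembles with Kcnd channels and is also known as a transcriptional repressor. It had 3.70, 3.49 and 4.19 CPM in female libraries and 8.76, 10.1 and 9.61 CPM in male libraries. It fell with its partner gene Kcnd1, with a difference of -1.32 ± 0.18 in log2 (edgeR adjusted p = 0.000603). Kcnip4, of the same family, had 0.685, 0.450 and 0.171 CPM in female libraries and 2.23, 0.971 and 0.455 CPM in male libraries, with overlap (-1.49 ± 0.70, edgeR adjusted p = 0.192). Without male library 3 the estimate was -1.87 (edgeR adjusted p = 0.0279), and without male library 1 it was -0.73 (0.600). Of its exon bases, 4.63% overlap 5730480H06Rik of the other strand, which had 1224 counts over the 6 libraries. The 3 genes of cytoplasmic beta subunits of shaker-type channels had positive estimates and none passed the test, with Kcnab3 at 0.88 ± 0.42, Kcnab1 at 0.65 ± 0.28 and Kcnab2 at 0.68 ± 0.38 (edgeR adjusted p = 0.202, 0.15 and 0.279). Kcnmb1 and Kcnmb2, of beta subunits of the large-conductance calcium-activated channel, had 0 counts in all libraries, and Kcnmb3 and Kcnmb4 together had 5 counts in female and 10 in male libraries.

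Inward rectifiers. Of 15 genes, 4 were tested, with 0 higher, 1 lower and 3 not passing. Kcnj15 encodes a rectifier best known from kidney and other epithelia (chromosome 16, 95257558 to 95300260). It had 4.93, 4.67 and 5.68 CPM in female libraries and 41.2, 40.0 and 21.8 CPM in male libraries. Male library 3 was the lowest male one and still above all female libraries (-2.75 ± 0.25, edgeR adjusted p = 4.99e-05). Kcnj2, of the classical strong inward rectifier, had 11.3, 9.11 and 8.54 CPM in female libraries, against 6.43, 7.33 and 5.12 CPM in male libraries. The sexes did not overlap, as for 35.9% of all tested genes, and the difference of 0.61 ± 0.20 missed the threshold (edgeR adjusted p = 0.0634, 95% interval 0.16 to 1.06). Kcnj4, a relative of Kcnj2, was at -0.89 ± 0.43 and Kcnj8, the pore of the vascular ATP-sensitive channel, at -0.58 ± 0.44 (edgeR adjusted p = 0.207 and 0.426). The other ATP-sensitive pore gene, Kcnj11, had 0 counts in all libraries. Of the genes of G protein-gated rectifiers, Kcnj5 and Kcnj6 had 0 counts in all libraries. Kcnj3, named after its values were seen, had 6, 11 and 4 counts in female libraries and 0 in all male libraries. That is at least 6.75-fold higher in female. Kcnj9, of the same group, had 8, 5 and 4 counts in female and 0, 0 and 4 in male libraries. Its CPM overlapped between the sexes, and neither Kcnj3 nor Kcnj9 passed the filter.

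Two-pore channels. Of 14 genes, 4 were tested, with 1 higher, 2 lower and 1 not passing. The related genes Kcnk2 and Kcnk10 encode channels opened by stretch and by fatty acids, and they differed in opposite directions. Kcnk2 (chromosome 1, 189207930 to 189402273) had 26.3, 25 and 26.7 CPM in female libraries and 10.3, 9.14 and 13.1 CPM in male libraries (1.27 ± 0.16, edgeR adjusted p = 0.000430), and 12.2% of its exon bases overlap A430027H14Rik of the other strand, which had 14 counts over the 6 libraries. Kcnk10 had 0.868, 1.01 and 0.940 CPM in female libraries and 2.52, 2.56 and 2.28 CPM in male libraries (-1.38 ± 0.32, edgeR adjusted p = 0.0146, and 0.0563 and 0.0634 without female library 1 and male library 2). Neither overlapped between the sexes. Per length Kcnk2 was the more abundant in both, at 17.7 TPM in female and 6.85 TPM in male libraries, while Kcnk10 was at 0.361 TPM in female and 0.886 TPM in male libraries. Kcnk5, of an alkaline-activated channel, had 2, 4 and 0 counts in female libraries and 25, 26 and 16 in male libraries. The difference was -3.40 ± 0.78 in log2 (edgeR adjusted p = 0.0132), -4.45 without female library 2 and -2.79 without female library 3, and the call was lost without female library 1 or male library 2 (0.0660 and 0.0628). Kcnk6 was at -0.28 ± 0.36 (edgeR adjusted p = 0.663), and Kcnk1 had 0 counts in every library.

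Calcium-activated channels and relatives. Of 8 genes, 4 were tested, with 1 higher, 1 lower and 2 not passing. Kcnn4, of the intermediate-conductance channel of endothelium and of activated or dividing cells of several other types, had the lowest fold change of all tested members (chromosome 7, 24370263 to 24386690). It had 10, 7 and 7 counts in female libraries and 221, 277 and 236 counts in male libraries, which is 0.457, 0.394 and 0.299 CPM in female libraries, against 10.7, 12.2 and 13.4 CPM in male libraries. Male libraries, library 3 included, lay close together and far above the female ones (-4.97 ± 0.25, edgeR adjusted p = 1.42e-06). Kcnma1, of the large-conductance channel typical of smooth muscle, went the other way, with 33, 17 and 38 counts in female libraries and 4, 9 and 2 in male libraries (2.47 ± 0.56, edgeR adjusted p = 0.0127). Its log2 fold change was 3.08 without male library 2, and the call was lost without female library 1 or female library 3 (0.0606 and 0.0621). Kcnn3, the other channel gene of endothelial hyperpolarisation, had 4, 4 and 2 counts in female and 16, 4 and 0 in male libraries, too few to test, and Kcnn2 had 0 in all. Kcnn1, of a small-conductance channel, was at -0.23 ± 0.27 (95% interval -0.84 to 0.39) and Kcnt2, of a sodium-activated channel, at 0.15 ± 0.36 (-0.67 to 0.97).

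**Figure D5:**
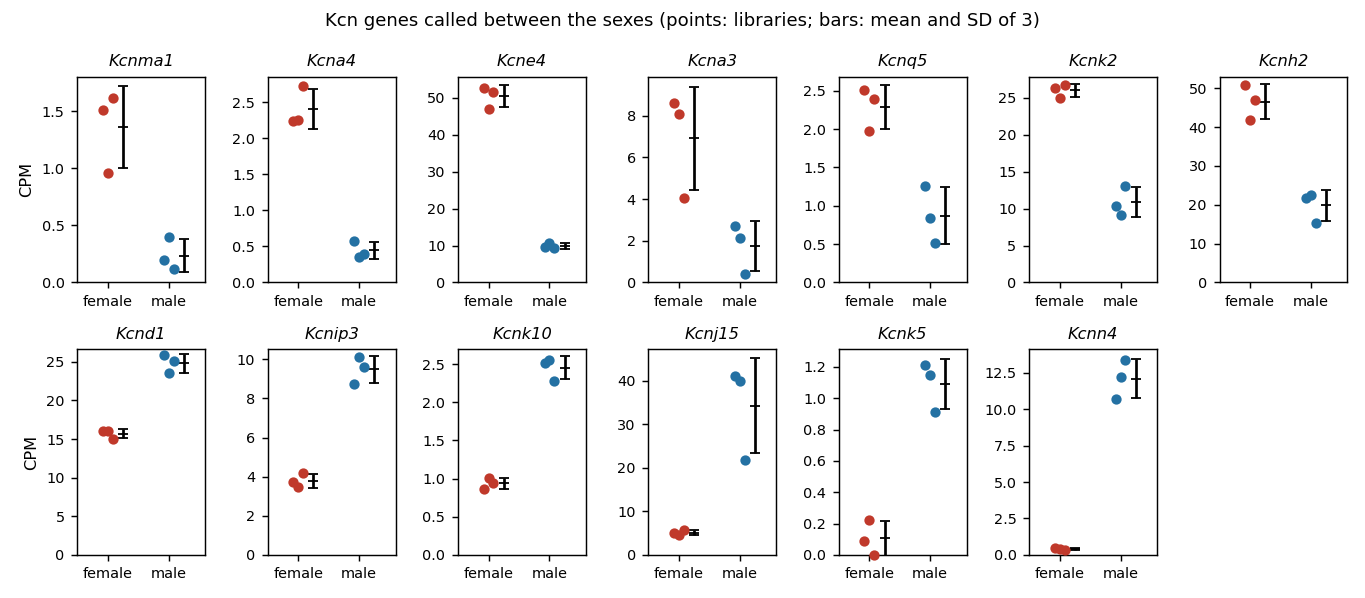
CPM of 13 of the 14 Kcn genes called between the sexes, with a point per library, and the mean and SD of 3 libraries; each axis starts at 0 and the genes run from the highest to the lowest log2 fold change. The genes were chosen for being called, so the gap between the sexes is part of that choice. Male library 3 is the lowest male library for Kcnj15, Kcna3 and Kcnh2, among others.

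Several members lie beside another member in the genome, and in the groups below a single gene took all or nearly all of the counts. On chromosome 3, Kcna3 had 427 counts over the female and 111 over the male libraries, while Kcna2, Kcna10 and Kcnc4, each within 500000 bases of the next, had 0. On chromosome 6, Kcna6 had 93 and 52 counts and its neighbours Kcna1 and Kcna5 had 2 and 0 counts over female and 0 over male libraries. Kcnj15 on chromosome 16 lies next to Kcnj6, Kcnj2 on chromosome 11 next to Kcnj16, and Kcnk5 on chromosome 14 next to Kcnk16, and each of these second genes had 0 counts in all libraries.

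Genes that work with the channels or move potassium by other means were taken as 4 further lists of 43 genes, of which 27 were tested, 1 rose and 6 fell, beside the 9.68% and 8.62% of all tested genes. Among accessory proteins without a Kcn symbol, 1 of 6 fell and 0 rose. Abcc9, the vascular partner of Kcnj8, had 5, 0 and 7 counts in female libraries and 9, 14 and 1 in male libraries, which overlap and were too few to test, and Abcc8 had 0 counts in all.

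Of 9 tested pump genes, 3 fell and 0 rose. The sodium-potassium pump beta subunit gene Atp1b3 had 166, 182 and 194 CPM in female libraries and 365, 360 and 469 CPM in male libraries (-1.14 ± 0.13, edgeR adjusted p = 0.000254). Fxyd5, of a small pump regulator, had 18.9, 23.5 and 21.4 CPM in female libraries, against 69.5, 80.9 and 115 CPM in male libraries (-2.06 ± 0.19, edgeR adjusted p = 5.54e-05), and Fxyd1 fell by 1.18 ± 0.23 (edgeR adjusted p = 0.00583). All 3 had their highest value in male library 3.

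Of 6 cotransporter genes, 1 rose and 0 fell. It was Slc12a1, of the kidney sodium-potassium-chloride cotransporter, at 3.24, 3.77 and 5.38 CPM in female libraries and 0.871, 0.839 and 0.626 CPM in male libraries (2.39 ± 0.33, edgeR adjusted p = 0.000683). Of 6 tested genes of other potassium-permeable channels, 2 fell and 0 rose. Hcn2, of a pacemaker channel, had 3.70, 5.34 and 4.95 CPM in female libraries and 8.76, 10.8 and 14.4 CPM in male libraries (-1.28 ± 0.23, edgeR adjusted p = 0.00398).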

How the data were processed

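The deposited table holds raw counts, which the authors left unnormalized, as whole numbers for every gene in every library, and gene lengths in bases. The tools named per the submitters' processing notes are HISAT2 2.0.5 and featureCounts 1.5, while neither build nor strand setting is given in the sources used here. Chromosome, start and end of 90 of the 94 members are the same in GENCODE M21 (GRCm38). The table's own coordinates are printed. Reads of genes that overlap, or of near-identical copies, can have been lost or split.

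Groups follow the labelled sex. All genes were fitted together with edgeR 4.0.16 (R 4.3.3): TMM scaling, filterByExpr with a minimum count of 10 (0.471 CPM in 3 libraries), robust quasi-likelihood F test, Benjamini-Hochberg adjustment. SE is the log2 fold change over the root of F. CPM uses TMM-scaled totals, with factors of 0.969 to 1.02. Chi-square per degree of freedom between libraries of a sex was 7.43 to 70.8, so none agreed within sampling noise. The members and lists were chosen with earlier results of these data known. Members named are those called, the 15 highest by TPM, those at 0 in a sex with a mean of at least 10 counts in the other, and up to 3 of smallest p per class among those not called, with partner genes that were called. Further members are named for their class or position, after their values were seen. The alternatives tried comprised DESeq2 1.42.0, limma-voom with quality weights (limma 3.58.1), scaling by RLE or upper quartile, no filter, a mean of at least 50 counts, a replicate block, each library left out, and an adjusted p under 0.01. A few genes that this rule names are counted but not reported here by name. Of the 94 members, 69 have a RefSeq window around their start.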

Additional observations from a re-analysis of the deposited data

How the results depend on the processing

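Of the 14 calls among potassium channel genes, 14 were called again in the same direction with RLE and upper quartile scaling, DESeq2, limma-voom with quality weights, no filter, the replicate block and without male library 1 or 3. With a mean of at least 50 counts, 4 genes were higher and 5 lower, since 15 members were then tested. At an adjusted p under 0.01, 4 were higher and 5 lower. Limma-voom called 9 higher and 11 lower. Leaving out each library gave 4 to 9 higher, with 4 without female library 1, and 5 to 9 lower. DESeq2 added 3 members, Kcnh7 and Kcnj2 among them. No filter added 6, Kcnh7, Kcnj2, Kcnf1, Kcnj3 and Kcnv2 among them.

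Over all genes, 1446 were higher and 1287 lower. Limma-voom called 3288 and 3283, an adjusted p under 0.01 gave 900 and 835, and leaving out each library gave 967 to 2508 higher and 903 to 2543 lower, each highest without male library 3. Of the partner genes, limma-voom called 2 higher and 10 lower, and leaving out a library gave 1 to 2 higher and 5 to 9 lower, with 2 and 9 without male library 3. The cause was not tested.

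Estimates near 0 turned sign. Kcnn1 was at 0.16, Kcnt2 at -0.04 and Kcnc2 at 0.04 with limma-voom. Without single libraries, Kcnt2 ran from -0.08 to 0.54 and Kcnc2 from -0.15 to 0.08. By CPM without gene length, auxiliary genes held 28.5% of the summed level in female and 13.7% in male libraries, and voltage-gated genes 46.0% in female and 45% in male libraries. In female libraries calcium-activated, inward rectifier and two-pore genes then held 4.57%, 7.60% and 13.3%, against 10.8%, 21.6% and 8.94% in male libraries. The two-pore shares, which overlapped by TPM, did not overlap by CPM. They were 12.3, 13.4 and 14.3% in female libraries and 7.58, 7.83 and 11.4% in male libraries.

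The check of deviations could not decide whether replicate numbers pair the libraries, since its correlations were low and mixed. Same-numbered libraries stood at 0.206, -0.00405 and 0.152. For female libraries 1 and 3 no other male library gave a higher value, though male library 2 came close for female library 1 (0.184). Female library 2 had its highest value with male library 3 (0.104). With the replicate block, 9 members were higher and 8 lower, the block adding 3, Kcnh7 and Kcnj2 among them, and 3068 genes were called in all.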
